A study of Mus musculus with 6 samples.

Results

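The coats of lipid droplets and the lipase that empties them were examined in the livers of mice whose hepatocytes carried either wild-type FXR or the Y67F mutant of FXR. The gene set held 10 of the 23284 genes in the count files: the perilipins Plin2, Plin3, Plin4 and Plin5, the CIDE genes Cidea, Cideb and Cidec, the lipase genes Pnpla2 and Pnpla3, and the lipase inhibitor gene G0s2. They were chosen by their place in lipid droplet storage and lipolysis, and with the fold changes between these same livers, Plin4 among the largest, already known. The differences between the groups are therefore given as a description of these genes within a test of the whole table, and support nothing beyond it.

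RNA was sequenced from the livers of 6 male FXR-floxed mice, 3 in each of 2 groups. All 6 were injected in the tail vein at 8 weeks of age with 100 µl of adeno-associated virus 8 carrying Cre recombinase under the TBG promoter, which acts in hepatocytes, so both groups had the hepatocyte Fxr deletion. The same injection carried AAV8-TBG-FXR WT (the FXR-WT group) or AAV8-TBG-Y67F-FXR (the Y67F-FXR group), in which a tyrosine that can be phosphorylated was replaced by phenylalanine. Where the study says flag-FXR it means tagged human FXR. All mice were fed chow with 0.5% cholic acid, a bile acid that activates FXR, for 6 h at 4 weeks after injection. Liver cells other than hepatocytes kept their floxed Fxr gene, and a level in whole liver RNA cannot tell fewer cells of a type from less RNA per cell. There was no group with the deletion alone among the samples analysed here.

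Hepatocytes store triglyceride in lipid droplets covered by a protein coat. Perilipins occupy the surface and limit or guide the access of lipases, and CIDE proteins sit where droplets touch and pass lipid from the smaller to the larger. Adipose triglyceride lipase, encoded by Pnpla2, removes the first fatty acid from triglyceride. It is activated by the protein of Abhd5 and blocked by that of G0s2, and Plin5 holds lipase and activator at the droplet. Several of these genes, Plin2, Plin4, Plin5, Cidec and G0s2 among them, are known targets of PPARα or PPARγ.

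The libraries held 19551113 to 22053320 reads assigned to genes. Albumin took 6.90% to 7.36% of them in every liver, and the summed markers of hepatocytes, Kupffer cells and leukocytes, stellate cells, endothelial cells and cholangiocytes each overlapped between the groups. None of these markers was called by edgeR, and at an unadjusted p under 0.05 Lrat, Col1a1, Acta2 and Lyve1 were lower. Of the 8 stellate cell markers, 3 (Lrat, Col1a1 and Col3a1) were lower in every Y67F-FXR liver than in every FXR-WT liver, an order found in 10.5% of all tested genes. Lrat, the retinol esterifying enzyme, was at 18.7, 13.1 and 17.9 CPM in FXR-WT and at 8.51, 5.78 and 8.12 CPM in Y67F-FXR livers, with a log2 fold change of −1.15 (adjusted p = 0.0540 with edgeR and 0.000129 with DESeq2). Of the 5 endothelial markers 1, Lyve1, had the same order (edgeR adjusted p = 0.210), and of the hepatocyte, Kupffer cell and cholangiocyte markers 0 were separated. These markers were named after their values were seen, and their part in the results below was not tested. FXR-WT replicate 1 had the lowest level of all 6 livers in 6 of the 9 members that could be tested, and in 21.2% of all tested genes. As the members were chosen with differences toward higher levels in Y67F-FXR livers known, a lowest value in an FXR-WT liver is not an independent observation. Mouse Fxr itself (Nr1h4) was at 152, 209 and 198 CPM (reads of a gene scaled to library size) in the FXR-WT livers and at 169, 169 and 186 CPM in the Y67F-FXR livers. This gene total does not check the deletion, since reads of the transgene could fall on mouse exons, and the whole-gene count does not separate the deleted part. The difference in Nr1h4 was −0.09 on the log2 scale (adjusted p = 0.861).

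Of the 10 members, 9 passed the filter on low counts. CPM is a level for one gene across livers, with library sizes scaled by TMM. RPKM is CPM per kilobase of exon not shared with another gene, and serves to compare genes with each other. The log2 fold change is the fitted difference of Y67F-FXR against FXR-WT from edgeR's quasi-likelihood test, with its standard error (SE) and a p-value adjusted over all 12453 genes tested. A gene was called changed at an adjusted p under 0.05 with a fitted fold above 1.5.

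All 9 tested members had fitted values above 0 (the smallest, that of Plin3, was below 0 with library totals alone), 3 were called higher (Plin4, Pnpla2 and Plin2), and 0 were called lower at edgeR's quasi-likelihood test. Over all tested genes 0.546% were called higher and 0.426% lower. At an unadjusted p under 0.05, 6 members were higher and 0 lower, where the same limit took 6.75% of all tested genes as higher and 6.67% as lower. DESeq2 called 5 members higher and 0 lower, against 1.68% and 1.63% of the genes it tested. In 6 members all Y67F-FXR livers lay above all FXR-WT livers, an order found in 10.2% of all tested genes. The median log2 fold change was 0.780 over the 9 members and 0.012 over all tested genes. Since the contrast had a part in choosing these genes, these counts describe them and are not a test of the set.

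The promoters of the 3 called genes are printed here, with that of Plin5, because PPARα, FXR and other nuclear receptors bind variants of the hexamer AGGTCA. Plin5, not called by edgeR, is shown since it and Plin2 are the members whose windows hold that hexamer. Each run is the 250 bases before the RefSeq start site on mouse assembly GRCm38.p6, read 5′ to 3′ on the strand of the gene, and capitals mark matches to the hexamer or to its repeats on either strand. The windows lie at chr4:86670060-86670309 (minus strand) for Plin2, chr17:56109783-56110032 (minus strand) for Plin4 and chr7:141454938-141455187 (plus strand) for Pnpla2. Of the start sites of Plin5, the window shown lies at chr17:56117549-56117798 (minus strand).
Plin2: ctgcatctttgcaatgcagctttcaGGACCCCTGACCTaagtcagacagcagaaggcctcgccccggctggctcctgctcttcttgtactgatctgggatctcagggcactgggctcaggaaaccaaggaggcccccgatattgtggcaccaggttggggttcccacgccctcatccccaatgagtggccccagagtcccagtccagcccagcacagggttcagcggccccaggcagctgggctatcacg
Plin5: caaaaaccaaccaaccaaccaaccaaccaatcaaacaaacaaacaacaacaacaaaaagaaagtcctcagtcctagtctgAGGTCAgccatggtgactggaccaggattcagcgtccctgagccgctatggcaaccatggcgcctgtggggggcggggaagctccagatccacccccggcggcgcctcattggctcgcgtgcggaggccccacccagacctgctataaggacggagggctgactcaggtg
Plin4: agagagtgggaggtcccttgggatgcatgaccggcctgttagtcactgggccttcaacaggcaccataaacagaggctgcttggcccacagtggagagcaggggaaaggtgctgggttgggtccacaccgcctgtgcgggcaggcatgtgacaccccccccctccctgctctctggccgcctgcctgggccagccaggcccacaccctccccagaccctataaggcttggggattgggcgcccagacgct
Pnpla2: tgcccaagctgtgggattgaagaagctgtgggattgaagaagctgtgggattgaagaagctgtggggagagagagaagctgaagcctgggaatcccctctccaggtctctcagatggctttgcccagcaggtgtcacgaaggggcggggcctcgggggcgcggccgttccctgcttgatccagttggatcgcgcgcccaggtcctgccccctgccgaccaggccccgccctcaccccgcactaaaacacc

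RefSeq promoters were found for 9 of the 10 members, in 11 windows. The hexamer AGGTCA was present in 2 of these windows, those of Plin2 and Plin5, and in 14% of all 32851 mouse promoter windows of the same length. In Plin2 it formed part of a match, with 2 mismatches, to the direct repeat AGGTCANAGGTCA, the spacing that PPAR and RXR are known to bind as a pair. That match, GGACCCCTGACCT as printed, lay on the opposite strand from base −225 to base −213, counted back from the start site. A match with up to 2 mismatches was present in 3.24% of all windows. The inverted repeat AGGTCANTGACCT, the arrangement best known for FXR with RXR, was absent with up to 2 mismatches from all 11 member windows and present in 0.959% of all windows. The hexamer is contained in both repeats, so these searches overlap. The windows of Plin4 and Pnpla2 held none of these matches. The forkhead sequence TGTTTAC and the E-box CACGTG were in 0 member windows, and in 3.17% and 6.02% of all windows. The short sequence TGACG, a core of cAMP-responsive elements, was in those of G0s2 and Pnpla3 and in 17.8% of all windows. These searches were made on both strands. They describe the letters of these windows only, and sites farther away were not searched.

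Among the perilipins, Plin4 and Plin2 were called higher in Y67F-FXR livers, Plin5 was separated between groups without passing the test, and the levels of Plin3 overlapped. Plin4, a perilipin of small new droplets that is best known from fat and muscle, was at 4.11, 10.4 and 7.73 CPM in the FXR-WT livers and at 50.6, 35.9 and 58.6 CPM in the Y67F-FXR livers. The lowest Y67F-FXR liver stood well above the highest FXR-WT liver. The fitted fold was 6.51, a log2 fold change of 2.70 ± 0.33 (SE, n = 3 against 3, edgeR adjusted p = 0.0175). The call was lost without FXR-WT replicate 3 (adjusted p = 0.0884) and without Y67F-FXR replicate 3 (adjusted p = 0.0732), with log2 fold changes of 2.73 and 2.55.

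The Plin4 gene lies on mouse chromosome 17 at 56240014 to 56249225 of build mm9, on the minus strand, with 5755 exon bases in the annotation used for counting. Its 3′ end meets the end of Hdgfrp2 on the plus strand, and the pair shares 6 exon bases, or 0.104% of the Plin4 exons. Reads that touched both genes were not counted. Hdgfrp2 was at 51.0 ± 3.54 CPM in FXR-WT and 48.5 ± 3.64 CPM in Y67F-FXR livers (mean ± SD, n = 3 each), with a log2 fold change of −0.07 (edgeR adjusted p = 0.869). On the other side, with no listed gene between them, Plin5 lies on the same strand at 56251024 to 56256971, and Plin3 follows on the same chromosome at 56418385 to 56429934.

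Plin2, the main droplet coat protein of hepatocytes, was at 498, 470 and 508 CPM in FXR-WT livers and at 800.5, 1027 and 842 CPM in Y67F-FXR livers. The FXR-WT livers lay close together, and all Y67F-FXR livers were above them. The fitted fold was 1.81, a log2 fold change of 0.85 ± 0.14 (SE, n = 3 against 3, edgeR adjusted p = 0.0353). Leaving out any of the 6 livers took Plin2 past the threshold, with adjusted p from 0.0693 (without Y67F-FXR replicate 1) to 0.141 (without FXR-WT replicate 2) and log2 fold changes from 0.73 to 0.93. The gene lies on chromosome 4 at 86302469 to 86315963 of mm9.

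Plin5, the perilipin of oxidative tissues, was at 40.8, 47.6 and 44.1 CPM in FXR-WT and at 59.7, 71.6 and 78.0 CPM in Y67F-FXR livers. The groups did not overlap. Its log2 fold change of 0.66 ± 0.14 (SE) did not pass the test (edgeR adjusted p = 0.0860), while DESeq2 gave an adjusted p of 0.00346. Plin3, a perilipin present in most cells that moves between cytosol and droplet, was at 35.5, 29.8 and 35.3 CPM in FXR-WT and 36.5, 28.8 and 36.1 CPM in Y67F-FXR livers. Its fitted difference was 0.01 ± 0.14 on the log2 scale (edgeR adjusted p = 0.990), and the sign of this small value changed with the scaling (−0.056 with library totals alone).

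**Figure D1:**
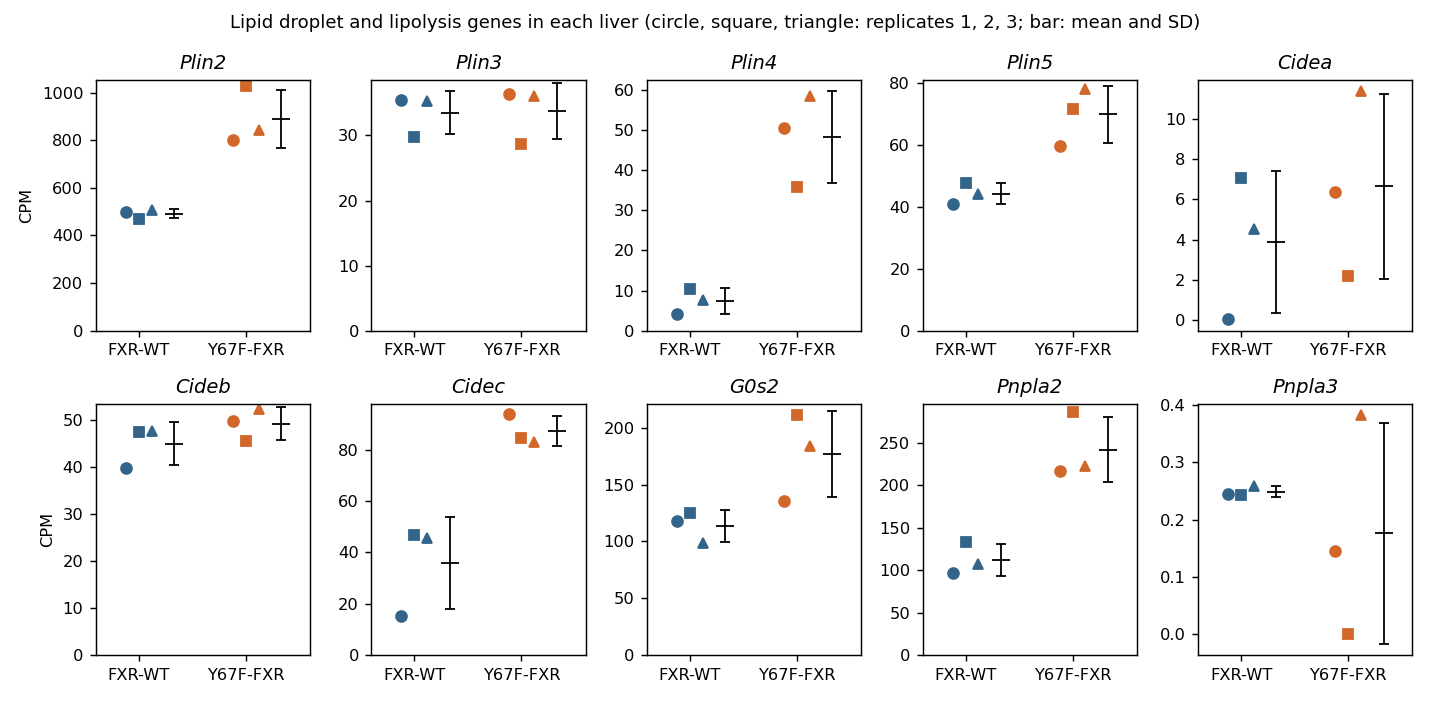
Level of each member in CPM (vertical axes, each starting at or just below 0 with its own scale) in the 3 FXR-WT and 3 Y67F-FXR livers, with one point per liver and the mean with its SD beside them. Plin2, Plin4, Plin5, Cidec, G0s2 and Pnpla2 show no overlap between groups, while Plin3, Cidea, Cideb and Pnpla3 overlap.

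Set on the per-length scale, Plin2 supplied most perilipin RNA in every liver. It took 87.1% ± 0.590 of the summed RPKM of the 4 perilipins in FXR-WT livers and 88.9% ± 1.83 in Y67F-FXR livers (SD, n = 3 each). Plin5 took 7.26% ± 0.755 and 6.49% ± 0.873, ranges that overlapped between the groups. The share of Plin3 was 5.19% ± 0.355 in FXR-WT and 3.01% ± 0.689 in Y67F-FXR livers, and that of Plin4 was 0.434% ± 0.196 and 1.62% ± 0.509, neither with overlap between groups. Thus Plin4, with the largest fold of the members, remained the least abundant of these 4 perilipins per length in every liver, at 0.238% to 1.99% of the sum. The summed perilipin RPKM was 299 ± 10.3 in FXR-WT and 530 ± 61.9 in Y67F-FXR livers, with no overlap. These shares combine values that were known when the genes were chosen and carry no test.

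None of the 3 CIDE genes was called by edgeR, and all 3 had fitted values above 0. Cidec, whose protein enlarges droplets in fat cells and in fatty liver, was at 15.4, 46.8 and 45.8 CPM in FXR-WT and at 94.0, 84.7 and 83.3 CPM in Y67F-FXR livers. The Y67F-FXR livers were close together and above all FXR-WT livers, among which replicate 1 stood well below the others. The log2 fold change was 1.28 ± 0.37 (SE, edgeR adjusted p = 0.170). Without FXR-WT replicate 1 it was 0.91 with an adjusted p of 0.0441, and DESeq2 on all livers gave an adjusted p of 0.0127.

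Cidea, best known from brown fat and from steatotic liver, had 1, 145 and 105 reads in the FXR-WT livers and 131, 40 and 238 reads in the Y67F-FXR livers. That is 0.0489, 7.03 and 4.54 CPM against 6.37, 2.18 and 11.4 CPM, so the spread within each group exceeded the difference between them. The log2 fold change was 0.78 ± 0.94 (SE, edgeR adjusted p = 0.801), and it ranged from 0.15 to 1.51 when single livers were left out. Cideb, the CIDE protein of normal hepatocytes, with a role in lipoprotein assembly, was at 39.8, 47.6 and 47.7 CPM in FXR-WT and 49.9, 45.5 and 52.4 CPM in Y67F-FXR livers. The ranges overlapped, with a log2 fold change of 0.13 ± 0.13 (SE, edgeR adjusted p = 0.740). Of the 1173 exon bases of Cideb, 855 (72.9%) are shared with 2610027L16Rik on the opposite strand. Reads were counted without regard to strand and those touching both genes were dropped, so the count of Cideb comes largely from its remaining 318 exon bases. The partner 2610027L16Rik differed by −0.12 on the log2 scale (edgeR adjusted p = 0.763).

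Counted per kilobase of unshared exon, Cideb supplied 85.95% ± 6.34 of the summed CIDE RPKM in FXR-WT livers and 73.1% ± 0.889 in Y67F-FXR livers (SD, n = 3 each). Cidec supplied 12.2% ± 4.76 and 24.3% ± 2.07, with 6.73% in FXR-WT replicate 1 and at least 14.9% in the other livers of that group. Neither share overlapped between groups. Cidea supplied 0.0313% to 4.37% and overlapped. The level of Cideb per length depends on how reads at its shared exons were dropped, and so do these shares. A higher share of Cidec lowers that of Cideb, so these are not separate observations. They combine values known when the genes were chosen and carry no test.

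**Figure D2:**
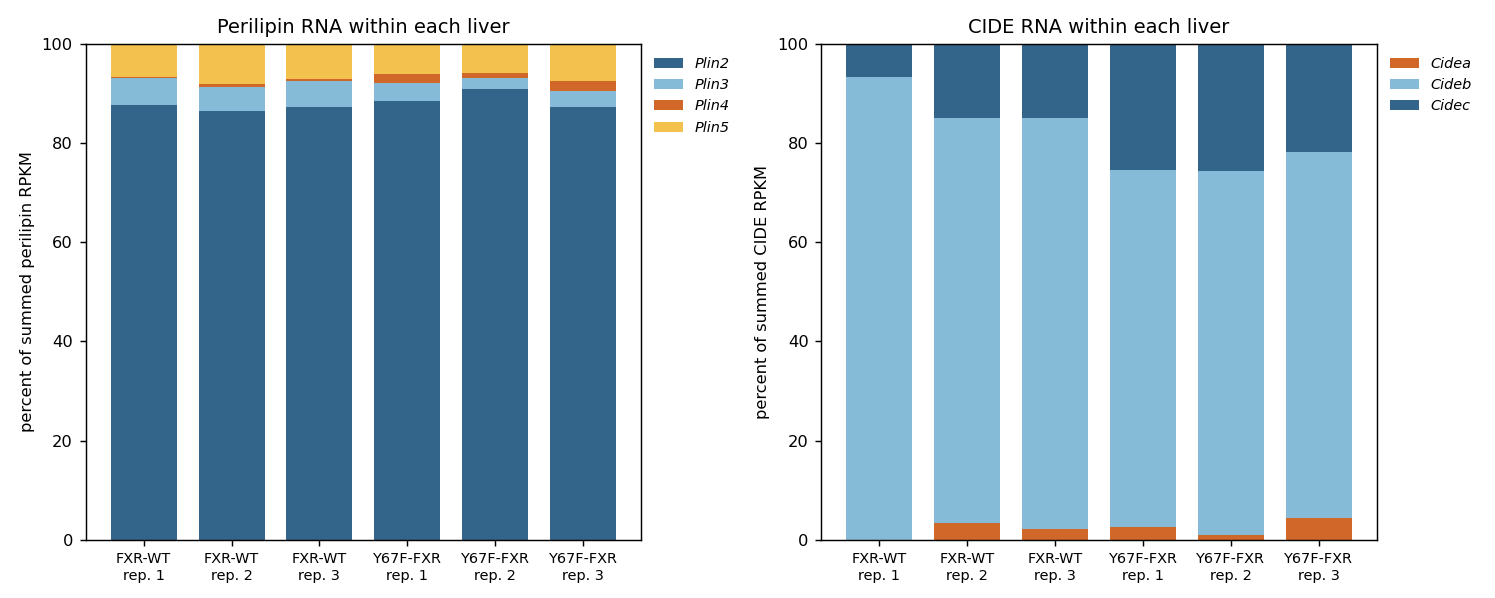
Share of each gene in the summed RPKM of its family (vertical axes, percent) in each of the 6 livers, with perilipins on the left and CIDE genes on the right. Plin2 fills 86.5% to 90.9% of every perilipin column, and the Cidec part of the CIDE columns is 21.9% to 25.6% in Y67F-FXR livers against 6.73% to 15.0% in FXR-WT livers.

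Because Cidea, Cidec and Plin4 are abundant in adipose tissue, markers of fat cells were read in the same libraries. Of the 9 adipocyte markers listed, 5 had fewer than 10 reads in each liver. Leptin (Lep) and Ucp1 were at 0 reads in all 6 livers, which allows up to 0.164 CPM in the shallowest library and less in the others. Adiponectin (Adipoq) had 1 to 5 reads, resistin (Retn) 0 to 3 and Plin1 0 to 2. The summed adipocyte marker level was 28.1 to 53.5 CPM in FXR-WT and 24.5 to 32.5 CPM in Y67F-FXR livers. Of the 4 that could be tested, 0 were called, 1 had a fitted value above 0 and 3 below. Cfd was at 0.684, 6.55 and 1.77 CPM in FXR-WT and at 3.50, 1.80 and 5.39 CPM in Y67F-FXR livers, with a log2 fold change of 0.26 (edgeR adjusted p = 0.931). Like Cidea, Cidec and Plin4 it was lowest in FXR-WT replicate 1. Among the Y67F-FXR livers it was lowest in replicate 2, like Cidea and Plin4 but unlike Cidec. The summed marker level was the reverse, highest in these same livers of each group. Most of that sum came from Fabp4, Lpl and Adrb3, at 21.5, 22.05 and 9.24 CPM in FXR-WT replicate 1. It thus says little about Cfd or the markers with few reads. Lpl was the marker with all Y67F-FXR livers below all FXR-WT livers, at −0.84 on the log2 scale (edgeR adjusted p = 0.210). These 9 markers were named after their values were seen, and the part of fat cell RNA in the results was not tested.

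Of the lipolysis genes, the lipase gene Pnpla2 was called higher, its inhibitor G0s2 was separated between groups without passing the test, and Pnpla3 was barely detected. Pnpla2 was at 96.1, 133 and 107 CPM in FXR-WT and at 217, 286 and 223 CPM in Y67F-FXR livers. All Y67F-FXR livers lay above all FXR-WT livers. The fitted fold was 2.16, a log2 fold change of 1.11 ± 0.17 (SE, n = 3 against 3, edgeR adjusted p = 0.0333). As with Plin2, leaving out any of the 6 livers took it past the threshold, with adjusted p from 0.0609 (without FXR-WT replicate 2) to 0.129 (without FXR-WT replicate 3) and log2 fold changes from 0.96 to 1.25. The gene lies on chromosome 7 at 148641087 to 148646642 of mm9, on the plus strand.

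G0s2 was at 118, 125 and 98.3 CPM in FXR-WT and at 136, 211 and 184 CPM in Y67F-FXR livers. The groups did not overlap, though the nearest livers differed by little. The log2 fold change was 0.64 ± 0.18 (SE, edgeR adjusted p = 0.170). Pnpla3, a paralogue of Pnpla2 whose protein remodels droplet lipid and is known to follow feeding, had 5, 5 and 6 reads in FXR-WT and 3, 0 and 8 reads in Y67F-FXR livers. The count of 0 allows up to 0.164 CPM in that liver. No difference in Pnpla3 was detectable at this depth, and it did not pass the filter on low counts.

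Within each liver, the RNA of the inhibitor and of the activator was set against that of the lipase. The RPKM ratio of the inhibitor G0s2 to Pnpla2 was 3.96, 3.04 and 2.95 in FXR-WT livers and 2.02, 2.38 and 2.67 in Y67F-FXR livers. The ratio of Plin5 to Pnpla2 was 0.530 ± 0.0472 and 0.389 ± 0.0695 (SD, n = 3 each). The ratio of the activator Abhd5 to Pnpla2 was 0.280, 0.221 and 0.273 in FXR-WT and 0.0972, 0.0744 and 0.103 in Y67F-FXR livers. All 3 ratios were lower in every Y67F-FXR liver than in every FXR-WT liver, and none was tested. They share the denominator Pnpla2, the called gene, and are not separate observations. These are ratios of RNA and not of protein.

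**Figure D3:**
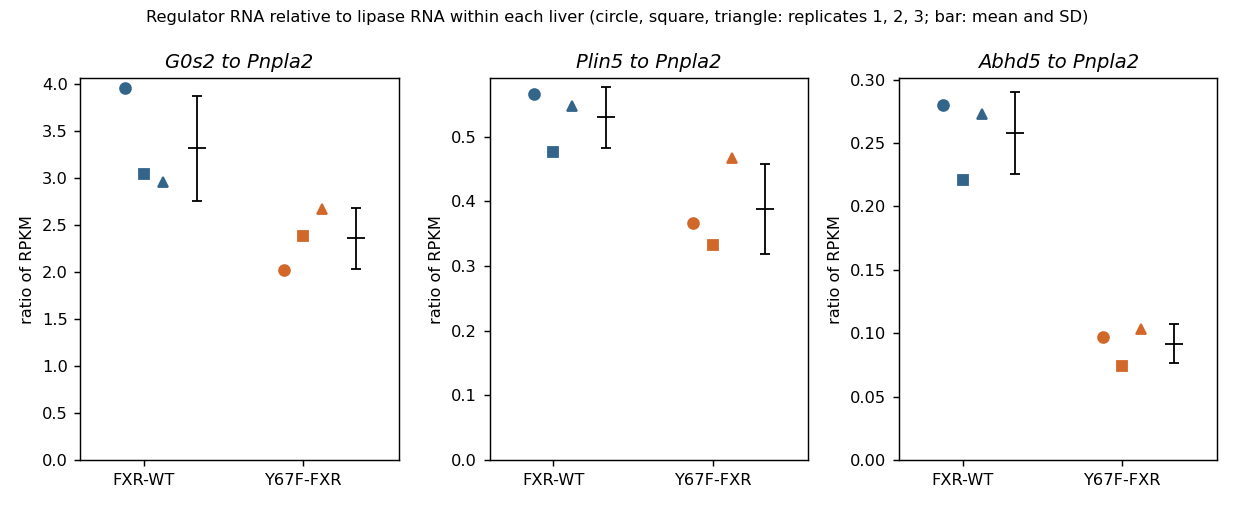
RPKM of the inhibitor G0s2, of Plin5 and of the activator Abhd5 divided by the RPKM of the lipase gene Pnpla2 (vertical axes, ratio, starting at 0) in each liver, with the mean and SD of each group. The 3 ratios are lower in every Y67F-FXR liver, and Abhd5 to Pnpla2 is separated the most, at 0.221 to 0.280 in FXR-WT against 0.0744 to 0.103.

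Around these members, a list of 30 other genes of lipid droplets, lipolysis and triglyceride assembly held 29 that could be tested. None passed edgeR's test with the fold limit (0 higher and 0 lower, against 0.546% and 0.426% of all tested genes). Of these, 19 had fitted values above 0 and 10 below, with a median log2 fold change of 0.195. Over all tested genes 6474 were above 0 and 5979 below, with a median of 0.012. All Y67F-FXR livers lay above all FXR-WT livers in 9 listed genes and below in 3 (10.2% and 10.5% of all tested genes). At an unadjusted p under 0.05, 7 were higher and 3 lower (6.75% and 6.67% of all tested genes), and DESeq2 called 3 higher and 0 lower (1.68% and 1.63% of the genes it tested). The 3 were Lipe, Mogat1 and Lpin1, and Lpin1 was named after its values were seen.

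Hormone-sensitive lipase (Lipe), which takes the second fatty acid, was at 24.5 ± 1.13 CPM in FXR-WT and 37.3 ± 4.39 CPM in Y67F-FXR livers (SD, n = 3 each). The log2 fold change was 0.61 ± 0.13 (SE, edgeR adjusted p = 0.0882). For the droplet-bound dehydrogenase gene Hsd17b11 the fitted log2 difference was 0.56 (adjusted p = 0.137), and for Mogat1, which makes diglyceride from monoglyceride, it was 1.12 (adjusted p = 0.162), both without overlap between groups. Lpin1, a phosphatidate phosphatase, was at 19.8, 51.7 and 38.8 CPM in FXR-WT and 99.4, 55.5 and 87.8 CPM in Y67F-FXR livers (adjusted p = 0.198).

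On the lower side, Abhd5 was at 31.1, 34.0 and 33.9 CPM in FXR-WT and 24.5, 24.7 and 26.7 CPM in Y67F-FXR livers. It thus lay lower in every Y67F-FXR liver, with a log2 fold change of −0.39 ± 0.11 (SE, edgeR adjusted p = 0.178) that did not pass the test. The acyl-CoA synthetase gene Acsl3 differed by −0.66 on the log2 scale (adjusted p = 0.257) and the carboxylesterase gene Ces3b −0.52 (adjusted p = 0.319). Acsl3 was without overlap between groups, and Ces3b overlapped.

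A second list held 18 transcriptional and hormonal regulators of these genes, all of which were tested. None passed edgeR's test in either direction, against 0.546% of all tested genes higher and 0.426% lower. At an unadjusted p under 0.05, 2 were higher and 2 lower, where all tested genes gave 6.75% and 6.67%. All Y67F-FXR livers lay above all FXR-WT livers in 4 regulators and below in 3. These orders were found in 10.2% and 10.5% of all tested genes. DESeq2 called 0 higher and 1 lower, Nr0b2, where it called 1.68% and 1.63% of its genes. Fitted values were above 0 in 13 and below in 5, with a median log2 fold change of 0.251, beside 6474 above, 5979 below and 0.012 for all tested genes. Nr0b2 encodes SHP, a repressor and a direct target of FXR. It was at 81.9, 63.7 and 59.5 CPM in FXR-WT and at 6.42, 25.9 and 7.59 CPM in Y67F-FXR livers, with no overlap. The log2 fold change was −2.37 ± 0.50 (SE, edgeR adjusted p = 0.0862), and without Y67F-FXR replicate 2 it was −3.30 with an adjusted p of 0.00265. It also passed with no filter on low counts (adjusted p = 0.0450).

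PPARα (Ppara), the fatty acid receptor that acts on several of the members, was at 153, 229 and 249.9 CPM in FXR-WT and at 359.9, 270.4 and 316 CPM in Y67F-FXR livers. The groups did not overlap, and the log2 fold change of 0.58 ± 0.20 (SE) did not pass the test (edgeR adjusted p = 0.255). For Creb3l3, a hepatic factor of fasting and triglyceride metabolism, the fitted log2 difference was 0.45 (adjusted p = 0.184), and for the coactivator gene Ppargc1a it was 0.72 (adjusted p = 0.397), with 0.42 without Y67F-FXR replicate 1 and 1.09 without FXR-WT replicate 3. The lipogenic factors Mlxipl and Srebf1 had log2 fold changes of −0.52 (adjusted p = 0.255) and −0.48 (adjusted p = 0.389), both also without overlap between groups. Srebf1 was highest in FXR-WT replicate 1, at 148.5 CPM against 86.01 and 86.8 CPM in the other FXR-WT livers, and its value was −0.18 without that liver.

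**Figure D4:**
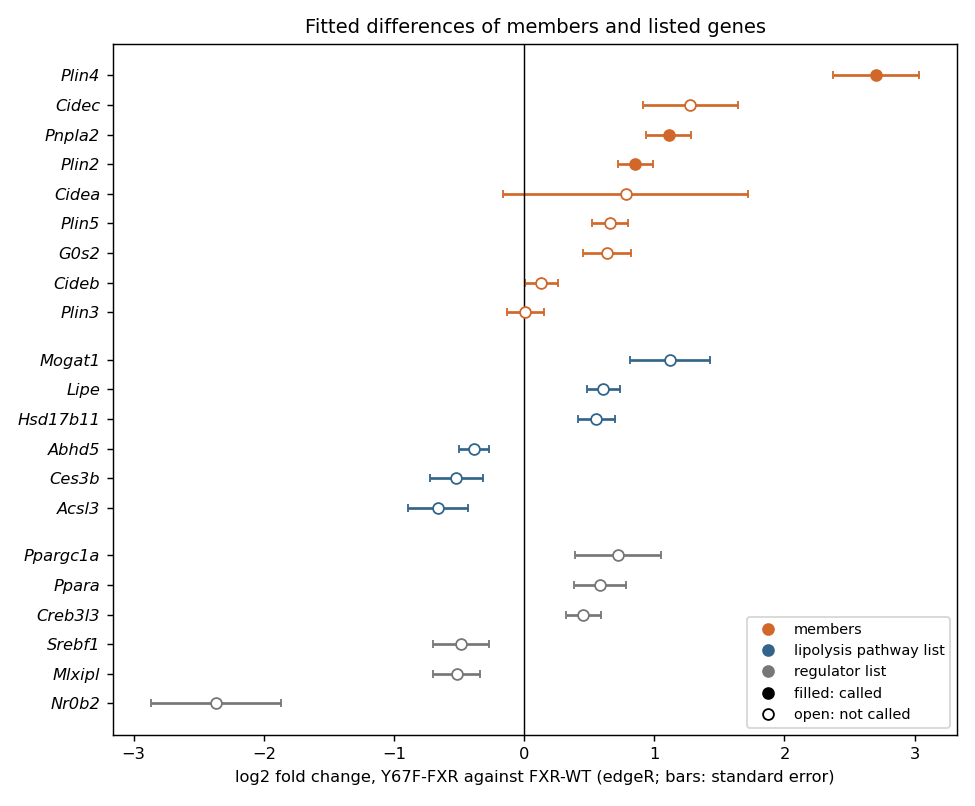
Fitted log2 fold change of Y67F-FXR against FXR-WT livers (horizontal axis) for the 9 tested members and for the 3 genes with the smallest adjusted p in each direction of the pathway and regulator lists, with bars of 1 standard error. Filled points mark genes called by edgeR, which are Plin4, Pnpla2 and Plin2, and among the members the bars of Cidea and Plin3 cross 0.

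For each called member, the 3 tested genes with the nearest profile over the 6 livers were listed, by the Euclidean distance between mean-centred log2 CPM. The nearest to Plin2 were Zfp949 (distance 0.0992), Grik5 (0.134) and Acaa1b (0.211). Acaa1b, a peroxisomal thiolase gene, was at 1209 ± 25.1 CPM in FXR-WT and 2298 ± 117 CPM in Y67F-FXR livers (SD, n = 3 each). The nearest to Pnpla2 were Ltc4s (0.175), Por (0.180) and Pcsk4 (0.208), of which Por, the reductase that serves microsomal cytochromes P450, was at 508 ± 87.1 and 1164 ± 156 CPM. No gene came as near to Plin4, for which the distances were 1.12 for Acot3, 1.12 for 2410018M08Rik and 1.19 for Got1. Acot3, a peroxisomal acyl-CoA thioesterase gene, was at 11.6, 49.9 and 31.6 CPM in FXR-WT and 139, 145.5 and 109.5 CPM in Y67F-FXR livers. Like Plin4 it was lowest in FXR-WT replicate 1. Ltc4s was low, at 0.407 ± 0.109 CPM in FXR-WT and 1.04 ± 0.183 CPM in Y67F-FXR livers. Each gene here was picked for its likeness to a called member in these same 6 livers. Its group difference and its order of livers follow from that choice and are not separate observations.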

How the data were processed

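Liver RNA of 6 mice was sequenced as paired-end reads of 100 bases. The authors deposited raw read counts per gene, made with featureCounts 1.4.6-p4 per the file headers, on build mm9, after trimming and STAR alignment (2.5.3a in the submitters' processing notes). The counting did not use strand, counted the reads of a pair singly, and left out reads mapped to several places or touching several genes. A deposited table of the authors' own comparison, with log2 fold changes, mean log2 CPM, p-values and false discovery rates, was not used.

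Counts were tested here with edgeR 4.0.16 (R 4.3.3): low counts were removed by filterByExpr, library sizes were scaled by TMM, and the quasi-likelihood test compared the 3 Y67F-FXR with the 3 FXR-WT livers, adjusted by Benjamini-Hochberg over 12453 genes. An exact permutation of 3 against 3 livers cannot reach a p under 0.05, so no single-value test was made. The common biological coefficient of variation was 0.194, and replicates of a group differed by more than counting noise. Samples were grouped by their labels, which give 1 library per numbered sample and no further information on the animals, so p-values measure the spread between these samples. Limits for a count of 0 (3 reads) cover counting error only.

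Alternatives were DESeq2 1.42.0, its size factors, library totals, other filters, length offsets, a replicate block, and leaving out each liver. The members, the 2 lists and the marker lists were chosen with earlier results of these data known. Named were all members, genes sharing their exons, Nr1h4, any called gene of a list and the 3 with the smallest adjusted p in each direction, and the 3 nearest profiles of each called member. Others are said to have been named after their values were seen. RefSeq promoters are on GRCm38.p6 and gene positions on mm9, and the builds were not mixed. The statistics were tested on simulated data.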

Additional observations from a re-analysis of the deposited data

How the results depend on the processing

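The number of members called higher stayed at 3 with DESeq2's size factors in edgeR, with library totals alone, with no filter on low counts, with at least 1 CPM in 3 libraries and with no fold minimum. It was 5 with DESeq2, which added Cidec and Plin5, and 5 with gene length offsets, which added Plin5 and G0s2. Leaving out single livers gave 0 to 2 calls: Plin4 and Cidec without FXR-WT replicate 1, Plin4 alone without FXR-WT replicate 2, Y67F-FXR replicate 1 or Y67F-FXR replicate 2, and 0 without replicate 3 of either group. With the replicate number as a block, 0 members were called, with log2 fold changes of 0.85 for Plin2, 2.76 for Plin4 and 1.11 for Pnpla2, and 2 genes of the whole table were called higher and 6 lower. The labels do not say whether the numbers pair the livers. Same-numbered deviations correlated at −0.517, −0.080 and 0.121, and unlike-numbered ones at −0.586 to 0.578. Deviations from a group mean of 3 livers are tied to each other, so these values cannot decide it. The pathway list had 3 genes called higher with DESeq2. The regulator list had 1 gene called lower, Nr0b2, with DESeq2, with no filter on low counts and with gene length offsets, and 0 to 1 when single livers were left out. Over the whole table, 68 genes were called higher and 53 lower, against 213 and 206 with DESeq2, 123 and 124 with gene length offsets, and 86 and 81 with no filter. With library totals alone 52 were called higher and 68 lower, which turns the balance. Leaving out single livers gave 2 to 35 higher and 7 to 33 lower. The sign turned for Plin3 alone, at −0.056 with library totals and between −0.069 and 0.10 when single livers were left out. The causes were not tested. Of 312 values of named genes under alternatives, 280 kept their direction and side of the threshold, 17 lost the threshold, 11 passed it and 4 reversed. The 17 losses were all of Plin2, Plin4 or Pnpla2, since no other named gene had a call to lose. Depth limited Pnpla3, with at most 8 reads.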

Other observations

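Of the 29 tested genes of the lipid droplet and lipolysis list, 12 had their lowest value of the 6 livers in FXR-WT replicate 1 (41.4%, beside 21.2% of all tested genes), and Abhd5, Acsl3 and Ces3b were among those that did not. The part of that library in these values was not tested. Fitm1 and Lpin1, both among the 12, were named after their values were seen. Fitm1, which encodes a protein that binds triglyceride in the endoplasmic reticulum as droplets form, was at 20.6, 59.5 and 60.3 CPM in FXR-WT and at 62.8, 63.7 and 79.5 CPM in Y67F-FXR livers, with a log2 fold change of 0.55 ± 0.36 (SE, edgeR adjusted p = 0.594). The next lowest liver of the 6 was thus far above FXR-WT replicate 1, and the other 5 lay between 59.5 and 79.5 CPM. Lpin1 was also lowest in that liver, at 19.8 CPM.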
